A study of Mus musculus with 3 samples.

Results

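The 9 genes described here encode carriers of sulfate, phosphate, bicarbonate and related anions through which chromate may cross cell membranes. They were chosen by name, as every non-control probe whose gene name in the array files was Slc26a1, Slc26a2, Slc26a6, Slc26a11, Slc4a2, Slc4a3, Slc20a1, Slc20a2 or Slc25a10, a rule that uses no measured value. The members were nonetheless listed with earlier results of these data known. They are 9 of 27724 gene names on the arrays. Total RNA came from C3H10T1/2 cells, fibroblast-like cells grown from mouse embryos and common in transformation tests, in 3 groups: untreated cells, cells given hexavalent chromium, Cr(VI), at 0.01 uM, and cells given Cr(VI) at 1 uM. Cells were seeded at 2000 per flask in 3 flasks per group, exposed for 48 h from 24 h after seeding, rinsed, and grown in fresh medium to day 15, when RNA was isolated. The labels do not say whether flasks were pooled, and each group had 1 array, so no difference below has a replicate check and none carries a p-value. The exposure had ended days before RNA was taken, and transport of chromate was not measured.

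Chromate is an oxyanion with a shape and charge close to those of sulfate and phosphate, and it enters cells on carriers that normally move those anions. The SLC26 family holds sulfate, oxalate, chloride and bicarbonate exchangers, the SLC4 members Slc4a2 and Slc4a3 are chloride-bicarbonate exchangers of the plasma membrane, and the SLC20 proteins bring in phosphate together with sodium. Slc25a10 lies in the inner mitochondrial membrane and trades dicarboxylates such as malate and succinate for phosphate, sulfate or thiosulfate. Once inside, Cr(VI) is reduced by ascorbate, glutathione and other thiols.

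The sequences shown here belong to Slc20a1, Slc4a3 and Slc20a2. With their brightest probes these were 3 of the 4 members higher on the 1 uM than on the untreated array by more than 2 standard errors of the scanner software's error model. The first is the 250 bases upstream of the annotated start of Slc20a1, chr2:129198523-129198772 on the plus strand of GRCm38.p6, from RefSeq, with each CACGTG, the core letters of an E-box, in capitals.
Slc20a1 upstream: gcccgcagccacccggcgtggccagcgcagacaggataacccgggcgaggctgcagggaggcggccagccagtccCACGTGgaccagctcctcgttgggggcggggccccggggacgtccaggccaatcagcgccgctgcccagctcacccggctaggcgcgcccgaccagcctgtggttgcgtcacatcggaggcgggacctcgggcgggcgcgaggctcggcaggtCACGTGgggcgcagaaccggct
The next is the matching stretch of Slc4a3, chr1:75546212-75546461 on the plus strand of the same build, with the letters TGCACNC, the core of a metal response element, in capitals.
Slc4a3 upstream: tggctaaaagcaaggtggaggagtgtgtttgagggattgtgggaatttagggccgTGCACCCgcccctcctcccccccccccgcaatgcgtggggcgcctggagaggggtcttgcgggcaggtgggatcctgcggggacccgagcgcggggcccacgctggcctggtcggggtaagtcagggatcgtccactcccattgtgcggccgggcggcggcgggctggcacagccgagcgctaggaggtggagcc
The last 2 are 60-base array probes, one read for Slc4a3 at chr1:75553890-75553949 and one for Slc20a2 at chr8:23674502-23674561, both on the plus strand of build mm9 as the array files give them, and they have no capitals. The Slc20a2 probe shown is not the brightest of its gene, and it was higher at 1 uM than untreated by 1.91 standard errors.
Slc4a3 probe: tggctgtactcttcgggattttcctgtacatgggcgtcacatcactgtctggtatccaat
Slc20a2 probe: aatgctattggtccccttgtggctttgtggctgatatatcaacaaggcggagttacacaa

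The RefSeq promoter table held 6 of the 9 members. Windows of the 250 bases before each start were searched on both strands. CACGTG was found 2 times upstream of Slc20a1, while 6.02% of all 32851 windows held it at least 1 time and 0.429% at least 2 times. The other Slc20a1 entry in the table had no CACGTG, and 1 of 2 entries of Slc26a1 had 1. TGCACNC was found 1 time, in Slc4a3, and in 10.4% of all windows. That match shares bases with a GGGCGG match on the other strand. The other form of the metal element core, TGCGCNC, was found 1 time, in the Slc20a1 window shown, where it is not in capitals. It was in 12.5% of all windows. GGGCGG, the GC box, occurred 2 times in each of the windows shown, while 32.7% of all windows held it at least 1 time and 16.7% at least 2 times. The windows shown were 75.2% (Slc20a1) and 70.0% (Slc4a3) G or C, and the shares of all windows were not matched for that. These matches describe letters in a window, and binding was not measured.

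Processed spot intensities were scaled by subtracting each array's 75th percentile of log2 intensity, so a level is a log2 value relative to that percentile on the same array. That percentile was 9.45 on the untreated array, 9.01 at 0.01 uM and 9.56 at 1 uM, so the 0.01 uM array was the dimmest. Of 41167 probes, 41.8% were well above background in untreated cells, 36.4% at 0.01 uM and 41.5% at 1 uM. The ± values are standard errors (SE) from the scanner software's error model, with a median near 0.21 for a log2 difference. They are modelled errors of a spot rather than measured scatter, and they leave out differences between cultures. Where a probe had replicate spots, the median standard deviation of their log2 intensities was 0.06 on each array. All 10 fibroblast markers checked were detected on all 3 arrays. Of the markers of other cell types, 1 of 5 for leukocytes (Cd68) and 1 of 3 for adipocytes (Fabp4) were detected on every array, and 1 of 3 for muscle (Des) on the untreated and 1 uM arrays. None of 5 epithelial and 4 endothelial markers was detected on the untreated and 0.01 uM arrays, and 1 of each (Krt19 and Cdh5) was on the 1 uM array. In bulk RNA a change in the mix of cells and a change in RNA per cell cannot be told apart, and the part of those markers in the values below was not tested.

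The 9 members had 14 probes, of which 10 were well above background on all 3 arrays and 4 on none. None was saturated. The brightest probe stood for each gene, and 8 of the 9 members had a detected one. The remaining member was Slc26a1, a basolateral sulfate and oxalate exchanger known from liver and kidney. Its brightest probe, at chr5:109099881-109099940 on the minus strand of mm9, read -4.61 on the untreated array, -3.96 at 0.01 uM and -5.07 at 1 uM. The lowest levels among detected probes were -3.02, -2.11 and -2.80 on the same arrays in that order, so Slc26a1 lay under that limit throughout and no fold was taken.

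The comparison of 1 uM with untreated cells asked which carriers differed at day 15 after the higher dose. Slc20a1, which encodes the sodium-phosphate cotransporter PiT1, was 2.57-fold higher at 1 uM. It was the only one of the 8 compared members at least 2-fold higher, where 5.67% of 12452 genes compared reached that fold, and 0 members were at least 2-fold lower, where 4.86% of genes were. Slc4a3 and Slc26a2 lay 1.71-fold and 1.70-fold higher, which made 3 members at least 1.5-fold higher against a background of 13.9%. With normexp both fell short of 1.5-fold, and Slc20a1 alone remained past it. The median difference of the 8 members was 0.42 on the log2 scale, and the median over all genes measured was -0.03. The lowest member was Slc26a11, 1.23-fold lower at 1 uM, a direction that turned with spike-in scaling.

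**Figure D1:**
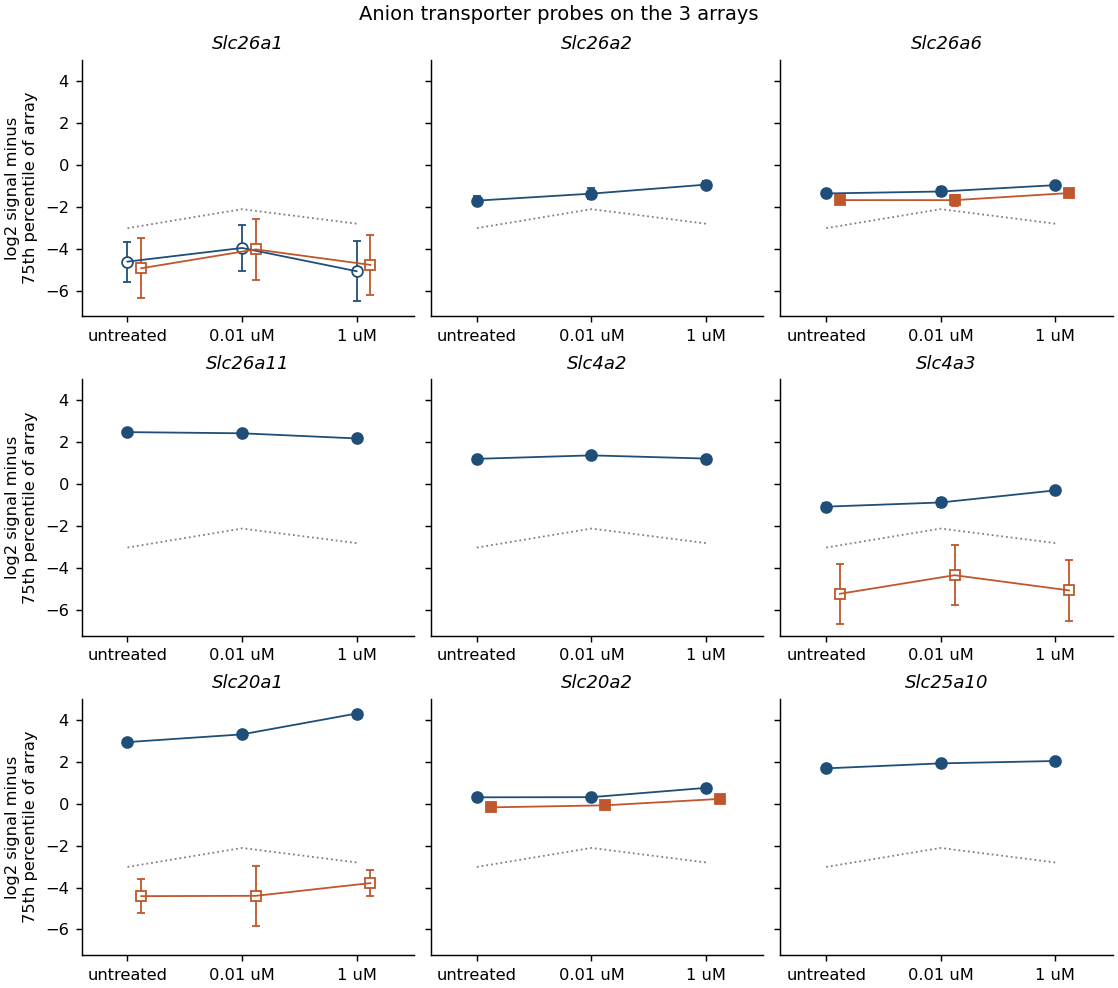
Log2 level relative to the 75th percentile for each probe of the 9 carriers on the untreated, 0.01 uM and 1 uM arrays, 1 array per group, with bars for the scanner error-model SE. Circles are the brightest probe of a gene and squares its other probe, open symbols were not well above background, and the dotted line is the lowest level among detected probes of each array. The detected Slc20a1 probe read 2.94 untreated, 3.31 at 0.01 uM and 4.30 at 1 uM, and both Slc26a1 probes stayed below background on every array.

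Slc20a1 had a level of 2.94 in untreated cells, 3.31 at 0.01 uM and 4.30 at 1 uM, at chr2:129037130-129037189 on the plus strand of mm9. The processed intensities of that probe were 5336.5 untreated, 5096.7 at 0.01 uM and 14819.9 at 1 uM. The 1 uM level was the highest, and the levels of the other arrays were closer to each other than to it. The difference of 1 uM from untreated was 1.36 ± 0.20 (error-model SE), and it placed Slc20a1 at percentile 98.3 among genes measured on both arrays. Every scaling tried kept Slc20a1 at least 2-fold higher at 1 uM than untreated, with log2 differences of 1.36 to 2.10. A further Slc20a1 probe, at chr2:129024609-129024668 near base 73 of its transcript, was not well above background on any array. The probe that measured the gene starts at base 3057. Labelling was primed with oligo-dT per the labels, and the part of the distance from the transcript end in the dim signal was not tested.

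Slc20a2 encodes PiT2, the other sodium-phosphate cotransporter of the family and a receptor for amphotropic retroviruses. Its brightest probe read 0.30 untreated, 0.31 at 0.01 uM and 0.75 at 1 uM, at chr8:23679094-23679153. The further probe, printed above, read -0.18, -0.08 and 0.23 in the same order. Both probes were highest on the 1 uM array, and neither separated the 0.01 uM from the untreated array beyond its SE. The differences of 1 uM from untreated were 0.45 ± 0.21 for the brightest probe and 0.40 ± 0.21 for the other, so Slc20a2 was 1.37-fold higher and short of 1.5-fold. Both phosphate carriers were thus highest on the same array, with unequal differences.

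The exchangers of the SLC4 family differed from each other. Slc4a3, the chloride-bicarbonate exchanger AE3 known from heart and brain, read -1.07 untreated, -0.87 at 0.01 uM and -0.29 at 1 uM. Its processed intensities were 332.8 untreated, 282.4 at 0.01 uM and 615.3 at 1 uM. The 1 uM array was again the high one, with a difference from untreated of 0.78 ± 0.23, which was 0.53 with normexp and 1.51 with spike-in scaling. Its further probe, at chr1:75557811-75557870, was not above background on any array. Slc4a2, the widely expressed exchanger AE2, read 1.21 untreated, 1.38 at 0.01 uM and 1.23 at 1 uM, at chr5:23946522-23946581. The difference of 1 uM from untreated was 0.01 ± 0.21, within the SE. With spike-in scaling the Slc4a2 difference was 0.75, where the median of all genes was itself shifted to 0.70.

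Slc26a2, the sulfate transporter that supplies cartilage proteoglycan sulfation and is mutated in human diastrophic dysplasia, lies on chromosome 18 at 61357857 to 61357916 in mm9. It read -1.71 untreated, -1.37 at 0.01 uM and -0.94 at 1 uM, with processed intensities of 213.8, 199.2 and 391.8 in that order. The difference of 1 uM from untreated was 0.76 ± 0.26. Background correction by normexp with quantile normalization brought it to 0.25, under 1.5-fold, and spike-in scaling raised it past 2-fold, while every setting kept the sign. Slc26a6, an exchanger of chloride, oxalate and bicarbonate that also carries sulfate, had 2 probes that overlap by 40 bases. The brighter read -1.36 untreated, -1.27 at 0.01 uM and -0.97 at 1 uM, and its difference of 1 uM from untreated was 0.40 ± 0.24. The overlapping probe gave 0.34 ± 0.26, and the 2 share target sequence and so are not separate measurements.

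Slc26a11, a broadly expressed sulfate and chloride transporter, was the 1 member below its untreated level at 1 uM, except with spike-in scaling. It read 2.49 untreated, 2.43 at 0.01 uM and 2.19 at 1 uM, at chr11:119242219-119242278. Its difference of 1 uM from untreated was -0.30 ± 0.20, under 2 SE, and spike-in scaling turned it to 0.43. Slc25a10, the mitochondrial dicarboxylate carrier, read 1.68 untreated, 1.92 at 0.01 uM and 2.04 at 1 uM, at chr11:120360325-120360384. Its difference of 1 uM from untreated was 0.35 ± 0.20.

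**Figure D2:**
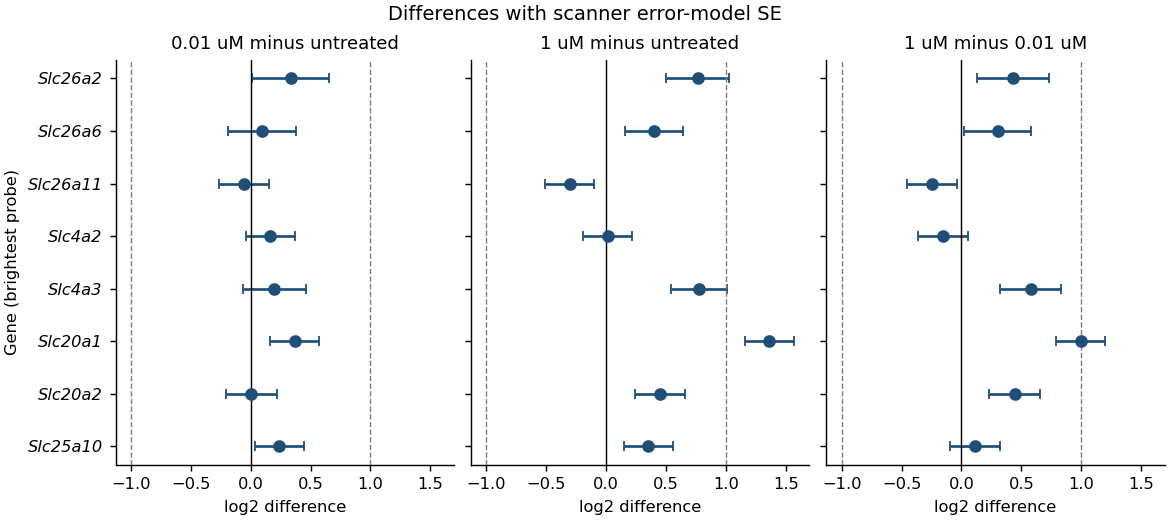
Log2 differences of each compared member for 0.01 uM minus untreated, 1 uM minus untreated and 1 uM minus 0.01 uM, with bars for the error-model SE and dashed lines at 2-fold. At 1 uM minus untreated, Slc20a1 lay at 1.36 and Slc26a11 at -0.30 (above 0 with spike-in scaling), with the other members between them.

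Set against the scanner error alone, 4 members (Slc20a1, Slc4a3, Slc26a2 and Slc20a2) were higher at 1 uM than untreated by more than 2 SE, where 17.1% of 11096 genes measured on both arrays were. None was lower by more than 2 SE, where 19.9% of genes were. This count and the order of levels below were chosen after the values were seen. The error covers 1 array of each group, so it bears on the spots and not on the treatment.

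The comparison of 0.01 uM with untreated cells asked the same at the lower dose, and it gave small differences. The 8 members differed by -0.06 to 0.37, with a median of 0.18 beside 0.06 over all genes measured. None reached 2-fold higher, where 0.269% of 11916 genes did, or 2-fold lower, where 0.168% did. None was at least 1.5-fold higher, beside a background of 0.898%. None was higher by more than 2 SE, with 1.76% of genes, and none lower by more than 2 SE, with 1.39%. Slc20a1 had the largest difference, 0.37 ± 0.20, and Slc26a2 followed with 0.33 ± 0.32. Slc25a10 differed by 0.24 ± 0.21, Slc4a3 by 0.20 ± 0.27, Slc4a2 by 0.17 ± 0.21 and Slc26a6 by 0.09 ± 0.29. These differences were all under 2 SE. Slc20a2 at 0.01 ± 0.21 and Slc26a11 at -0.06 ± 0.20 had no direction that held across scalings, since the first turned below 0 with detected-probe scaling (-0.05) and the second above 0 with spike-in scaling (0.30).

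**Figure D3:**
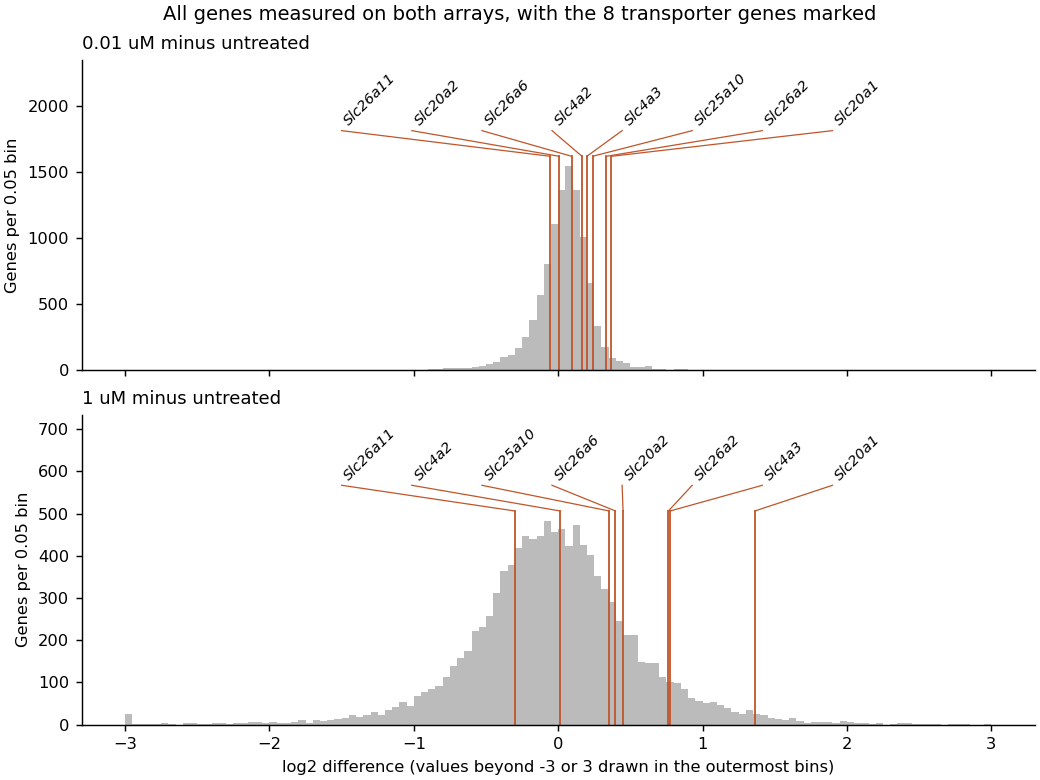
Number of genes by log2 difference, for 0.01 uM minus untreated above and 1 uM minus untreated below, over genes measured on both arrays, with lines at the values of the 8 members. Slc20a1 lay at percentile 97.1 in the upper panel and 98.3 in the lower.

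The 1 uM and 0.01 uM arrays were compared directly to set the doses against each other. Slc20a1 differed by 0.99 ± 0.20, 1.99-fold higher at 1 uM, which falls just under 2-fold, and 1.08 to 1.37 with 6 other scalings, each past it. With 75th-percentile scaling 0 members reached 2-fold higher, where 5.2% of 12060 genes did, and 0 reached 2-fold lower, where 6.45% did. Slc20a1 was the 1 member at least 1.5-fold higher, beside 12.4% of genes, and Slc4a3 came next at 1.49-fold (0.58 ± 0.26). Slc20a1, Slc4a3 and Slc20a2 were higher by more than 2 SE, where 15.8% of genes were, and none was lower by more than 2 SE, where 26.4% were. Slc26a2 differed by 0.43 ± 0.30 and turned to -0.07 with normexp. Slc26a11 at -0.25 ± 0.21 and Slc4a2 at -0.15 ± 0.21 both turned above 0 with spike-in scaling, to 0.13 and 0.23. These comparisons share arrays pairwise, so their values are not separate evidence.

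Levels ran in the order untreated, 0.01 uM, 1 uM for 6 of the 8 members (Slc26a2, Slc26a6, Slc4a3, Slc20a1, Slc20a2 and Slc25a10), where 17.9% of 10340 genes did. Slc26a11 ran the opposite way, except with spike-in scaling, as 12.2% of genes did. The order rested on steps within the SE between the untreated and 0.01 uM arrays for Slc20a2 (0.01), Slc26a6 (0.09) and Slc4a3 (0.20). For Slc25a10 the step from 0.01 uM to 1 uM (0.11) was within the SE. The first step was under 2 SE for all 6. Before scaling, each of the 6 had a lower processed intensity at 0.01 uM than untreated, so their first step upward appears only after scaling. The order was repeated under detected-probe percentile and median, quantile, normexp and spike-in scaling, not under loess. It held for 4 to 5 members under each of these but spike-in scaling, where all 8 had it together with 67% of genes.

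**Figure D4:**
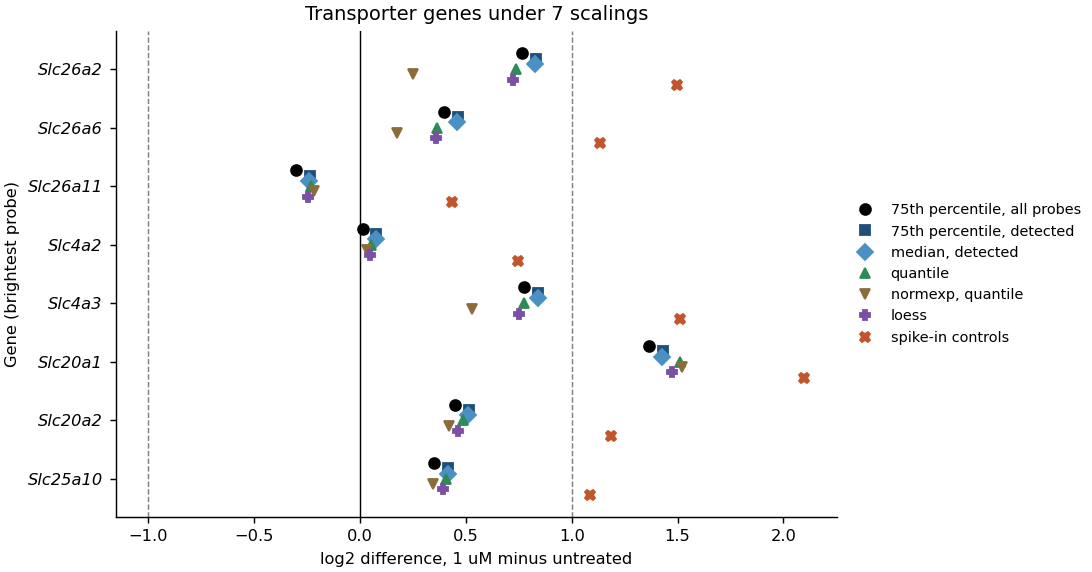
Log2 difference of 1 uM minus untreated for each compared member under 7 scalings, with dashed lines at 2-fold. Slc20a1 lies between 1.36 and 2.10, and Slc26a11 lies below 0 except with spike-in scaling, where it is 0.43.

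Other genes of the same pathways were counted from 7 lists. Their medians and single-gene values are with 75th-percentile scaling, and the counts of genes 2-fold apart were repeated under every alternative. The share of all genes past 2-fold at 1 uM against untreated was 5.67% upward and 4.86% downward. Every one of the 9 other SLC26 and sodium-sulfate transporters, which include Slc13a1, Slc13a4 and Slc26a3, had its brightest probe at background on all arrays, and no fold was taken for any of them. Among the 8 compared of 18 other SLC4 exchangers, carbonic anhydrases and pH regulators, 0 were 2-fold apart at 1 uM, with a median of 0.04. The bright members Slc4a7, a sodium-bicarbonate cotransporter, and Car9, a carbonic anhydrase of the cell surface, differed by 0.04 and -0.21. Slc4a8, a sodium-driven chloride-bicarbonate exchanger named after its values were seen, was 1.87-fold higher with its brightest probe, and its other probes differed by 0.60 to 1.51. The list's count became 1 with the mean of probes and 1 with spike-in scaling. Of 5 compared phosphate and pyrophosphate genes, 1 was at least 2-fold lower at 1 uM than untreated: Enpp1, which makes extracellular pyrophosphate from nucleotides, at 0.87 on the 1 uM array against 2.00 on the untreated array (2.19-fold lower). Its further probe was lower too, by a log2 difference of -2.07, but with normexp the list's count was 0. Slc37a4, the glucose-6-phosphate transporter, differed by -0.82. Slc25a3, the mitochondrial phosphate carrier, differed by 0.12 with its brightest probe and 0.98 with another.

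Among 24 compared genes of sulfate activation and Golgi sulfation, 1 was over 2-fold higher and 1 over 2-fold lower at 1 uM than untreated, with a median of -0.16. Chst3, a chondroitin 6-sulfotransferase, read 0.31 on the 1 uM array against -0.91 on the untreated array, 2.32-fold higher. Chst12, a chondroitin 4-sulfotransferase, read -0.19 against 0.89 in the same order, 2.11-fold lower, and its further probe differed by -1.24. With normexp neither Chst3 nor Chst12 was 2-fold apart (0 of the list), and with spike-in scaling 6 genes of the list were. Ndst1, a heparan sulfate N-deacetylase and sulfotransferase, differed by -0.39. Of the 9 compared mitochondrial anion carriers and the 19 compared chloride and anion channels, 0 were counted as 2-fold apart at 1 uM, but 2 of the channels (Vdac1 and Clic1) were saturated on both arrays and had no fold. With spike-in scaling 1 carrier and 6 channels were 2-fold apart, and 1 channel was with either detected-probe scaling. Slc25a11, the oxoglutarate carrier, and Mpc1, a subunit of the pyruvate carrier, each differed by -0.40, and the outer-membrane channel Vdac2 by -0.53.

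The genes of chromate reduction and thiol supply had 16 of 17 compared members and a median of 0.03 at 1 uM. Slc7a11, the cystine-glutamate exchanger that feeds glutathione synthesis, was the 1 at least 2-fold higher, 4.08-fold with its brightest probe, and 0.56 to 1.61 on the log2 scale with its other probes. With spike-in scaling 6 genes of this list were 2-fold apart. Cyb5a, a microsomal cytochrome of electron transfer, was 1.93-fold lower at 1 uM than untreated and 2.25-fold lower at 1 uM than at 0.01 uM. The count of genes 2-fold apart between the doses was 2 in this list, and 1 with quantile, normexp or loess scaling or with both arrays required to be above background. No gene of the 7 lists was 2-fold apart between 0.01 uM and untreated, except 1 sulfation gene with spike-in scaling and genes counted with no filter on dim probes.

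**Figure D5:**
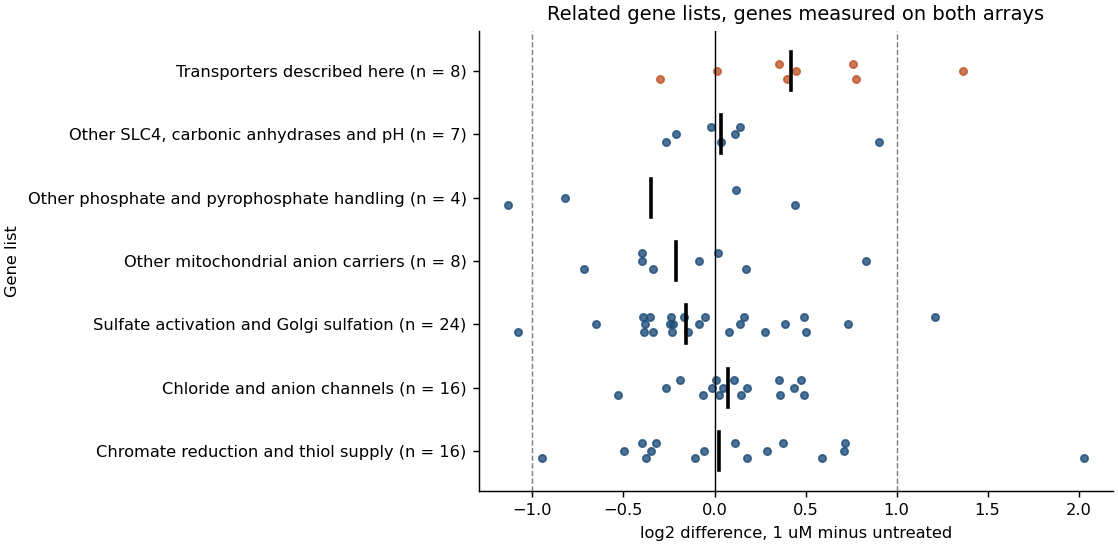
Log2 difference of 1 uM minus untreated for the 8 compared members and for the genes of 6 lists measured on both arrays, with each point 1 gene, a bar at the median and dashed lines at 2-fold. The members' median is 0.42, and that of the phosphate and pyrophosphate list is -0.35.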

How the data were processed

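RNA of 3 groups of cultured cells was read on 3 single-colour Cy3 arrays of 1 slide, 1 per group, so slide did not vary with dose, while array and culture cannot be told apart from it. Per the file headers, the authors obtained the processed intensity of each spot from Agilent Feature Extraction, version 10.5.1.1, and probe positions are of build mm9. The deposited value table holds log2 values that equal log2 processed intensity minus a constant per array, and how it was made is not stated in the labels. The constants (9.45 untreated, 9.01 at 0.01 uM, 9.56 at 1 uM) match each array's 75th percentile. The deposited values are therefore no separate check on the main scaling. Control spots and flagged outliers were dropped, and replicate spots averaged as log2 values. Each array's 75th percentile was subtracted. The brightest probe stood for its gene, which was compared if either array had it well above background. If the other was dim, the fold is a lower bound. With 1 array per group no test was run and no p-value given; 2-fold differences were counted over all genes. Members, lists and named genes (members 2-fold apart in a list, plus its 2 brightest) were chosen with earlier results of these data known. Names came from the array files and RefSeq tables, with 25094 probes matched by accession. Other settings were median, quantile and detected-probe scaling, normexp (limma 3.58.1, R 4.3.3, offset 50), loess (span 0.4), 6 spike-in controls, filters, probe averaging and folds of 1.5 and 3. Python 3.11.15, numpy 2.4.6, pandas 2.3.3 and statsmodels 0.14.6 were used, and counting was tested on simulated data. The number of arrays limits precision.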

Additional observations from a re-analysis of the deposited data

How the results depend on the processing

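No paired analysis was possible because each group had 1 array. Of 264 member values under alternatives, 236 moved by less than their error or stayed past 2-fold. Many of the 236 could not move or could hardly move, so their number is no measure of stability. The filter settings returned the main values, because the compared members' probes were detected on all arrays. The deposited values and kept outlier spots gave nearly the main values, and probe averaging touched only Slc26a6 and Slc20a2. The other 28 moved by more, 23 of them with spike-in scaling. Spike-in scaling shifted the median of all genes to 0.70 (1 uM minus untreated), 0.41 (0.01 uM minus untreated) and 0.27 (1 uM minus 0.01 uM). Members 2-fold apart at 1 uM from untreated numbered 1, but 6 with spike-in scaling, 3 at 1.5-fold, 0 at 3-fold and 4 past 2 SE. Between the doses they numbered 0, but 1 with detected-probe percentile, detected-probe median, quantile, normexp, loess or spike-in scaling, with no filter (Slc26a1, dim) or at 1.5-fold, and 3 past 2 SE. Over all genes, 1311 were 2-fold apart at 1 uM from untreated, but 708 with normexp, 2924 with no filter, 3690 with spike-ins, 3402 at 1.5-fold and 374 at 3-fold. At 0.01 uM there were 52, but 10 with normexp, 16 with both arrays detected, 984 unfiltered, 81 with spike-ins, 242 at 1.5-fold and 11 at 3-fold. Between doses there were 1405, but 862 with normexp, 3108 unfiltered, 3579 at 1.5-fold and 426 at 3-fold. Of genes 2-fold apart at 1 uM from untreated, 53.9% were higher, 41.7% with normexp and 95.5% with spike-ins; at 0.01 uM 61.5%, 49.2% with detected-probe percentile, 73.5% with quantile, 50% with normexp and 93.8% with spike-ins; between doses 44.6%, 57.6% with detected-probe percentile, 58.3% with loess and 79.2% with spike-ins. The cause was not tested.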
